A study of Aspergillus nidulans with 7 samples.

Results

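The central regulators of conidiation, the making of asexual spores, were followed as messenger RNA in Aspergillus nidulans over 48 h of synchronous development. The 5 genes were taken by identifier from the 10639 genes of the deposited table: brlA (AN0973), abaA (AN0422), wetA (AN1937), stuA (AN5836) and medA (AN6230). All 5 carry these symbols in the reference table, and all 5 passed the filter on low counts.

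Every library came from the wild-type strain FGSC A4, with no mutant or drug in the design. The 0 h library is mycelium from an aerated submerged culture, and the 6, 12, 18, 24, 30 and 48 h libraries are mycelium held on moist filters in air under constant light. Per the labels, aerial hyphae stand at about 6 h, vesicles and metulae by about 12 h and phialides between 12 and 18 h. Mature conidiophores with spore chains stand between 24 and 48 h. Each time has 1 library, which leaves no test between single times, and the duplicate filters of a time do not appear as separate columns. Whether their RNA was pooled is not stated. Each library is a whole filter with hyphae, conidiophores and spores together, so more cells of a type and more RNA per cell cannot be told apart.

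In A. nidulans, brlA encodes a zinc finger transcription factor whose loss leaves bare stalks without vesicles or spores. It acts before abaA, a TEA-domain transcription factor needed in phialides, and wetA, needed for the spore wall to mature. stuA, an APSES-family transcription factor, and medA modify the pathway: mutants of stuA make stunted conidiophores and mutants of medA make repeated layers of metulae. The brlA locus is known to give overlapping transcripts, which share 1 row here.

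The library totals ran from 4186063 counts at 12 h to 9899347 at 30 h. Levels are CPM, counts scaled to a common library size, after TMM normalization, which scales libraries so that the bulk of genes is level, with exact 95% Poisson intervals that cover counting error only. On this scale a single count equals 0.313 CPM in the 0 h library and 0.0771 CPM in the 30 h library. The TMM factor of the 0 h library, 0.459, stood apart from 0.878 to 1.39 in the others, so the fitted changes and the folds of the 5 regulators over 0 h are also given over 6 h or by library totals.

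brlA was almost silent at 0 and 6 h and stood higher in each library from 12 h on. Its row (contig 14, 308483 to 309781, 1299 counted bases) held 3 counts at 0 h, 3 at 6 h, 50 at 12 h, 351 at 18 h, 612 at 24 h, 2119 at 30 h and 4366 at 48 h. In CPM these are 0.94, 0.638, 11.5, 67.4, 98.8, 163 and 347. The 12 h level (interval 8.51 to 15.1) lay above the upper limits at 0 h (2.75 CPM) and 6 h (1.87 CPM). From 12 h on, no interval overlapped that of the time before it. Ranked by counts per base, brlA stood at rank 8757 of 10639 at 0 h, 6933 at 12 h, 2495 at 18 h and 410 at 48 h, and a rank within a library does not depend on the scaling.

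At 48 h brlA stood at 369-fold its 0 h level (counting interval 126 to 1792) and 544-fold its 6 h level (186 to 2637), wide intervals that rest on 3 counts each. The steepest stretch of the brlA course lay between 6 and 18 h. The level at 12 h was 17.9-fold that at 6 h (counting interval 5.80 to 89.97), and the level at 18 h was 5.88-fold that at 12 h (4.36 to 8.07). Both pairs passed a limit of 4-fold where the higher level was 10 CPM or more, which 1.04% and 0.309% of the 9703 genes tested passed upward at those steps. The later steps were smaller: 1.47-fold for 24 h over 18 h, 1.65-fold for 30 h over 24 h and 2.13-fold for 48 h over 30 h. At those steps 0 of the 5 regulators passed the limit upward, against 0.165%, 0.237% and 1.19% of all genes. At 6 h over 0 h 0 of the 5 passed in either direction, where 2.74% of genes passed upward and 4.68% downward. Downward, 0 of the 5 passed at a later step, against 0.278% of genes at 12 h over 6 h and 0.0412% at 18 h over 12 h. The downward shares of all genes were 0% at 24 h over 18 h, 0.433% at 30 h over 24 h and 1.56% at 48 h over 30 h. None of these pairs has a replicate check.

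abaA was present from the start and stayed low for a day. Its row (contig 7, 134947 to 137438, 2391 counted bases) held 49, 39, 26, 44 and 62 counts at 0, 6, 12, 18 and 24 h, then 345 at 30 h and 906 at 48 h. In CPM these are 15.4, 8.30, 5.96, 8.45, 10.01, 26.6 and 72.03. The intervals at 6, 12, 18 and 24 h overlap one another, and those at 30 h (23.9 to 29.6) and 48 h (67.4 to 76.9) lie above all earlier ones. Set against 24 h, the 30 h library had 2.66-fold as much abaA (2.02 to 3.54), and 48 h had 2.71-fold as much as 30 h (2.39 to 3.08). The level at 12 h was 0.388-fold that at 0 h (0.232 to 0.637) with TMM, but 0.882-fold when scaled by library totals. At 48 h abaA stood at 8.68-fold its 6 h level (6.30 to 12.3) and 4.69-fold its 0 h level (3.52 to 6.39), or 14.3-fold its 0 h level by totals.

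wetA had nearly the same course as abaA. Its row (contig 29, 391554 to 393221, 1668 counted bases) held 29, 22, 32, 36, 54, 292 and 557 counts from 0 to 48 h. These are 9.09, 4.68, 7.33, 6.91, 8.72, 22.5 and 44.3 CPM. The first 5 libraries have overlapping intervals, and the 30 h interval (19.999 to 25.2) and the 48 h interval (40.7 to 48.1) lie above them. Within those 5, wetA at 24 h stood at 1.86-fold its 6 h level (1.12 to 3.21), or 2.58-fold by totals. Over 0 h it stood at 0.96-fold (0.60 to 1.56), or 2.54-fold by totals. For abaA 24 h over 6 h was 1.21-fold (0.795 to 1.85). The level at 30 h was 2.58-fold that at 24 h (1.93 to 3.52), and the level at 48 h was 1.97-fold that at 30 h (1.70 to 2.27). The level at 6 h was 0.515-fold that at 0 h (0.282 to 0.929) with TMM and 0.986-fold by totals. At 48 h wetA stood at 9.46-fold its 6 h level (6.18 to 15.2). Over 0 h it stood at 4.87-fold (3.36 to 7.35), or 14.8-fold by totals. Set against 0 or 6 h, its rise was thus of the same size as that of abaA within counting error. From 30 to 48 h it rose less, by 1.97-fold against 2.71-fold (2.39 to 3.08) for abaA.

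**Figure D1:**
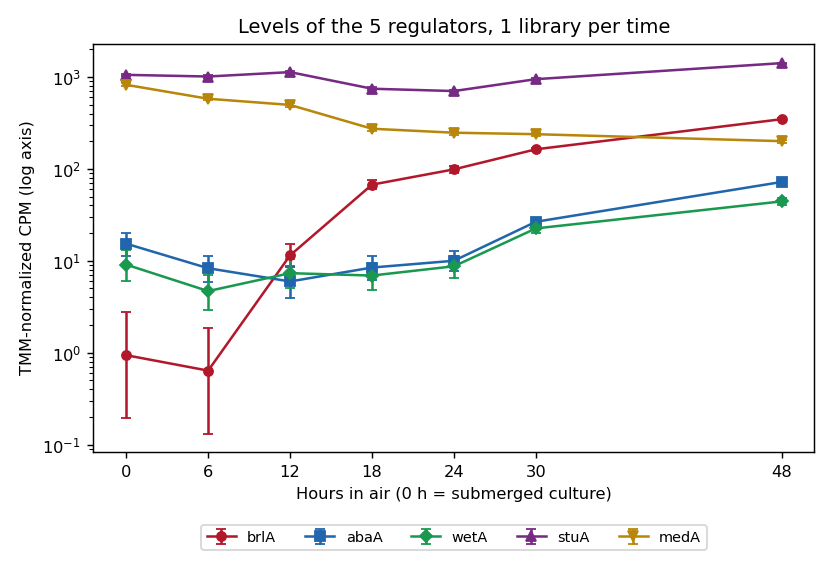
TMM-normalized CPM of brlA, abaA, wetA, stuA and medA on a log axis against hours in air, 1 library per time. Points are single libraries and bars are exact 95% Poisson intervals for counting error. brlA has 3 counts each at 0 and 6 h and 347 CPM at 48 h, while abaA and wetA stay at or under 15.4 CPM until 24 h.

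Slopes on hours were fitted across all genes with edgeR's quasi-likelihood test, and a fitted change is the slope times the hours spanned, in log2 units with its standard error. Over 0 to 48 h all 3 of brlA, abaA and wetA rose and medA fell, where 10.6% of 9703 genes rose and 12.4% fell. Over 6 to 48 h, without the submerged culture, the same 4 genes were called in the same directions, against 10.1% of 9691 genes called higher and 8.68% called lower. With the submerged culture left out, brlA rose by 6.42 ± 1.57 (adjusted p = 0.0281 with edgeR). abaA rose by 3.65 ± 0.47 (adjusted p = 0.00161 with edgeR), and wetA rose by 3.40 ± 0.42 (adjusted p = 0.00143 with edgeR). With it, brlA rose by 8.73 ± 1.74, abaA by 2.79 ± 0.69 and wetA by 2.88 ± 0.58 (edgeR, adjusted p = 0.00939, 0.0213 and 0.00892 in that order). Of the 3, brlA had both the largest fitted change and the largest error in either fit. Without the 48 h library the 0 to 48 h calls were lost for abaA (0.86, edgeR, adjusted p = 0.376) and wetA (1.42, edgeR, adjusted p = 0.133), and on log2(hours + 6) that of abaA was lost (2.24, edgeR, adjusted p = 0.0958). The 6 to 48 h call of brlA was lost without the 12 h library (adjusted p = 0.0829, edgeR) or the 30 h library (0.0557), and that of abaA without the 48 h library (0.0619).

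The bend of each course was tested with a term for hours squared and is given as the height of the fitted curve over the straight line between its ends, at mid-course. brlA stood 3.28 ± 0.68 log2 units above its line (edgeR adjusted p = 0.0424), a direction called for 2.71% of all genes, while 0.608% were called below the line. abaA stood at -1.36 ± 0.42 (adjusted p = 0.109 with edgeR) and wetA at -0.73 ± 0.42 (adjusted p = 0.35 with edgeR), both short of the threshold. stuA (-0.59 ± 0.36) and medA (-0.66 ± 0.31) did not pass either (edgeR adjusted p = 0.364 and 0.244). The call for brlA was lost with RLE size factors (edgeR adjusted p = 0.0504) and when the 12, 18, 24, 30 or 48 h library was left out (2.09 without 48 h, edgeR, adjusted p = 0.348).

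The order of the rises was read as the first library at least 4-fold above the lowest earlier one, with every later library above that mark as well. brlA passed it at 12 h, the time the labels give for metulae. abaA and wetA both passed it at 30 h, 18 h after brlA, when the labels place mature conidiophores. Of all 9703 genes, 2.1% first passed at 6 h, 2.88% at 12 h, 2.09% at 18 h, 1.54% at 24 h, 2.55% at 30 h and 5.93% at 48 h, and 17.1% passed at any time. stuA and medA did not pass. Interpolated on the log scale between libraries, a reading added after the values were seen, the 4-fold marks were crossed at 8.88 h by brlA, 28.8 h by wetA and 29.3 h by abaA. abaA thus crossed 20.4 h after brlA and wetA 19.96 h after it, while wetA and abaA lie 0.491 h apart, between the same pair of libraries, and their order is not resolved. With the 6 h library as the base in place of the lowest one, abaA first passed at 48 h.

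Measured by the share of the 48 h level, the offset was small: brlA too had less than 50% of its 48 h level at 30 h. At 24 h brlA stood at 28.5% of its 48 h level, abaA at 13.9% and wetA at 19.7%. At 30 h the shares were 47.1% for brlA, 36.9% for abaA and 50.8% for wetA. By linear interpolation wetA reached 50% at 29.8 h (29.1 to 31.1, from the counting limits of its highest library), brlA at 31.0021 h (30.5 to 31.4) and abaA at 33.7 h (33.1 to 34.2). The intervals of wetA and brlA overlap, and that of abaA lies later than both. These intervals vary the 48 h count only and leave out the counting error at 24 and 30 h, so they do not settle the order. The 18 h between the last libraries bounds what these times can show.

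**Figure D2:**
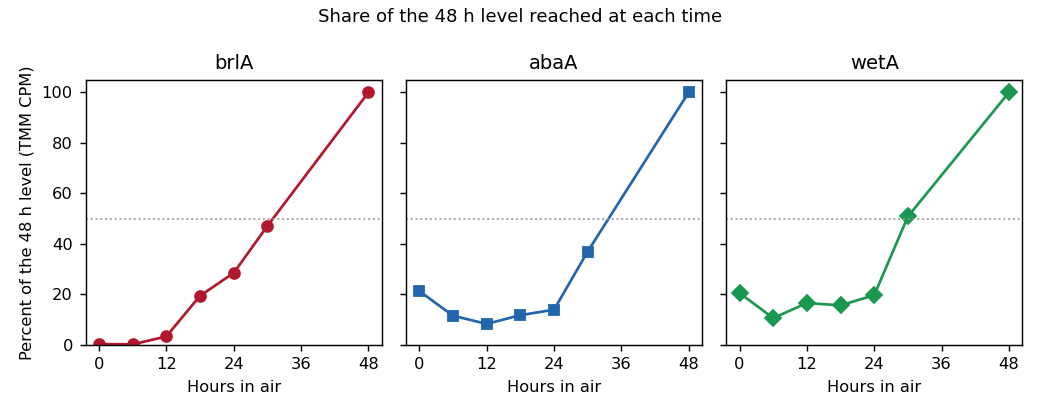
Level of brlA, abaA and wetA as a percent of the 48 h level (TMM CPM) against hours in air, 1 library per time, with a dotted line at 50%. At 18 h brlA stands at 19.4%, abaA at 11.7% and wetA at 15.6%, and at 30 h abaA stands at 36.9% and wetA at 50.8%.

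Ratios of 2 genes in the same library need no scaling between libraries. Per counted base, abaA stood at 8.87 times brlA at 0 h (exact interval 2.86 to 44.5) and 7.06 times at 6 h (2.25 to 35.7). The ratio was 0.283 at 12 h, 0.0681 at 18 h, 0.055 at 24 h (0.0417 to 0.0716), 0.0885 at 30 h and 0.113 at 48 h (0.105 to 0.121). The transcripts therefore changed places between 6 and 12 h, and the ratio at 48 h was above the interval of the 24 h ratio. wetA to brlA ran alike, with 7.53 at 0 h, 5.71 at 6 h, 0.498 at 12 h, 0.0799 at 18 h, 0.0687 at 24 h, 0.107 at 30 h and 0.0994 at 48 h. Here too the lowest value lay at 24 h (0.051 to 0.0909), with an interval that overlaps that of 18 h.

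wetA and abaA kept close to each other in every library. Their ratio per base was 0.848, 0.809, 1.76, 1.17, 1.25, 1.21 and 0.881 from 0 to 48 h. The intervals at 0, 6, 18 and 24 h include 1, those at 12 h (1.02 to 3.08) and 30 h (1.03 to 1.42) lie above it and that at 48 h (0.792 to 0.98) lies below it. Per base, wetA was thus the higher of the pair at 30 h and abaA at 48 h.

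Whether these ratios changed steadily with time was asked by an exact two-sided permutation test of their slope over the 5040 orders of the 7 libraries, for 3 pairs. The fitted slope for abaA to brlA was -6.64 log2 units over 48 h (exact p = 0.0685, 0.103 adjusted over the pairs). That for wetA to brlA was -6.61 (exact p = 0.0395, 0.103 adjusted over the pairs), and that for wetA to abaA was 0.028 (exact p = 0.955, also after adjustment). No pair passed after adjustment on this time scale. On log2(hours + 6) both ratios to brlA passed, at -7.96 for abaA and -7.66 for wetA (exact p = 0.0103 and 0.00575, 0.0155 adjusted for each), as they did without the 48 h library (0.0333 adjusted for each). Over the 12 to 48 h libraries alone, without the times at which brlA had 3 counts, the slopes were -0.57 for abaA to brlA and -1.39 for wetA to brlA (exact p = 0.675 and 0.408). The lowest and highest values of each ratio to brlA have intervals that do not overlap, which covers counting error only.

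**Figure D3:**
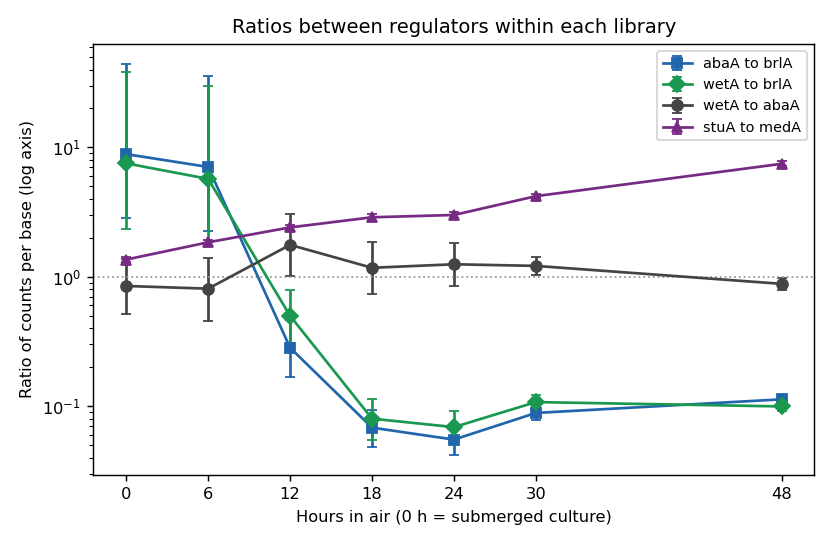
Ratio of counts per base between pairs of regulators within each library, on a log axis against hours in air, with exact 95% intervals for counting error and a dotted line at equality. At 24 h abaA to brlA is at 0.055 and wetA to brlA at 0.0687, against 8.87 and 7.53 at 0 h. wetA to abaA stays between 0.809 and 1.76, and stuA to medA is 7.47 at 48 h, against 1.36 at 0 h.

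stuA and medA were abundant throughout and had unlike courses. stuA (contig 97, 122060 to 124066, 1869 counted bases) stood at 1054, 1012, 1129, 745, 703, 947 and 1415 CPM from 0 to 48 h. Its highest library was 48 h on both scales, and its lowest was 24 h with TMM and 0 h by totals. With TMM, stuA at 48 h stood at 2.01-fold its 24 h level (1.95 to 2.08) and 1.34-fold its 0 h level (1.29 to 1.39), and by totals at 4.08-fold its 0 h level. Its rank by counts per base lay between 526 and 156 of 10639. The fitted change of stuA missed the threshold over 0 to 48 h (0.30 ± 0.48, edgeR, adjusted p = 0.687) and over 6 to 48 h (0.47 ± 0.42, edgeR, adjusted p = 0.483), and was negative in both without the 48 h library (-0.40 and -0.29). Scaled by totals alone its change over 0 to 48 h was 1.53 (edgeR adjusted p = 0.0404), and the median change of all genes was then 1.35, so stuA lay close to the bulk of genes on either scale.

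medA (contig 103, 47883 to 49966, 1977 counted bases) stood at 821, 579, 496, 273, 248, 238 and 200.3 CPM. On this scale each library was below the one before it, and the intervals overlap for 24 and 30 h and for 18 and 24 h. By totals the levels were 377, 509, 517, 293, 301, 313 and 279 CPM, so the order of neighbouring libraries was kept only for 18 h below 12 h and 48 h below 30 h. Set against 0 h, medA at 48 h stood at 0.244-fold with TMM (0.231 to 0.258) and 0.741-fold by totals. The largest single step was 18 h over 12 h, at 0.551-fold (0.515 to 0.589), or 0.566-fold by totals. medA fell by 2.07 ± 0.47 over 0 to 48 h (adjusted p = 0.015, edgeR). Over 6 to 48 h it fell by 1.5004 ± 0.41 (adjusted p = 0.0341, edgeR). By totals the changes were -0.81 and -0.91 and did not pass (edgeR adjusted p = 0.198 and 0.109), on a scale where the median change of all genes was 1.35 and 0.67. The call over 6 to 48 h did not hold without the 6, 12, 24 or 30 h library, with adjusted p up to 0.0976 in edgeR. The rank of medA by counts per base, free of that choice, was 672 at 0 h, 578 at 6 h, 603 at 12 h, 1054 at 18 h, 1070 at 24 h, 997 at 30 h and 1209 at 48 h.

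The ratio of stuA to medA per base, described after its values were seen and not tested, was 1.36 at 0 h, 1.85 at 6 h, 2.41 at 12 h, 2.88 at 18 h, 3.003 at 24 h, 4.198 at 30 h and 7.47 at 48 h (7.17 to 7.79). It was higher in every library than in the one before, with overlapping intervals only for 18 and 24 h. medA to brlA per base was 596 at 6 h, 28.5 at 12 h, 2.67 at 18 h, 1.65 at 24 h, 0.959 at 30 h (0.908 to 1.01) and 0.379 at 48 h. brlA and medA were therefore level at 30 h within counting error and brlA was the more abundant at 48 h. stuA remained 2.83 times brlA at 48 h (2.74 to 2.93).

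**Figure D4:**
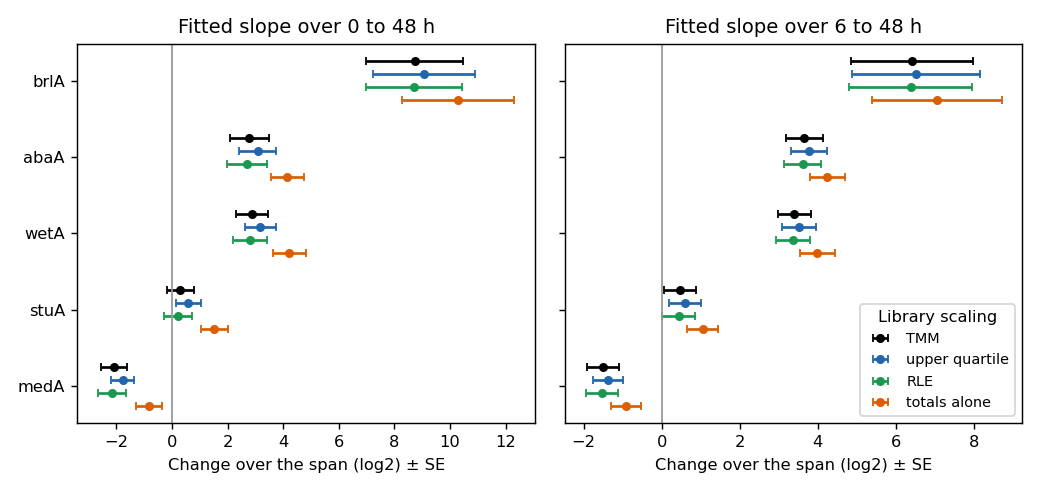
Fitted change in log2 units with its standard error for the 5 regulators over 0 to 48 h (left) and 6 to 48 h (right), under 4 ways of scaling the libraries. brlA, abaA and wetA lie above 0 under all 4, from 2.71 for abaA with RLE factors over 0 to 48 h upward, and totals alone place all 5 higher than TMM does, with stuA at 1.53 and medA at -0.81 over 0 to 48 h.

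The genes most like each regulator were found by Pearson's r of log2(CPM + 0.5) over the 7 libraries among 7974 other genes that reached 10 CPM in a library. They are a description of 7 points that share libraries, and r compares the shape of a course, not its size. brlA was most like tmpL (r = 0.998), AN10715 (0.998), AN0230 (0.996), the rodlet hydrophobin gene rodA (0.995) and AN10588 (0.995). Among genes with a symbol, ugd2 came next (r = 0.974). From 0 to 48 h AN10715 went from 2.19 to 14.9 CPM and tmpL from 0 to 117. abaA was most like AN8377 (r = 0.995), AN4905 (0.994), AN8150 (0.984), AN6918 (0.984) and AN3791 (0.982). wetA ranked 27 in the order of abaA (r = 0.951), and brlA ranked 1267 (r = 0.551). From 0 to 48 h AN4905 went from 94.9 to 131 CPM and AN8377 from 1.25 to 10.7.

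wetA was most like AN2866 (r = 0.99), AN9054 (0.987), AN8813 (0.983), AN10789 (0.981) and CweA (0.981), and then, among genes with a symbol, cspA (0.977) and the spore laccase gene yA (0.974). For stuA these were AN1380 (r = 0.977), AN9320 (0.97), AN10444 (0.961), the kinase gene kfsA (0.957) and AN6598 (0.952). For medA they were AN3573 (r = 0.994), AN8986 (0.992), AN2871 (0.989), AN6410 (0.989) and AN8102 (0.988). The r of medA with brlA was -0.967, which put medA at rank 7953 of 7974 in the order of brlA. The next genes with a symbol were idi1 (0.971) and prm1 (0.945) for abaA, jhd1 (0.951) and iml1 (0.907) for stuA, and pmt4 (0.984), gtb3 (0.978) and bioDA (0.967) for medA.

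**Figure D5:**
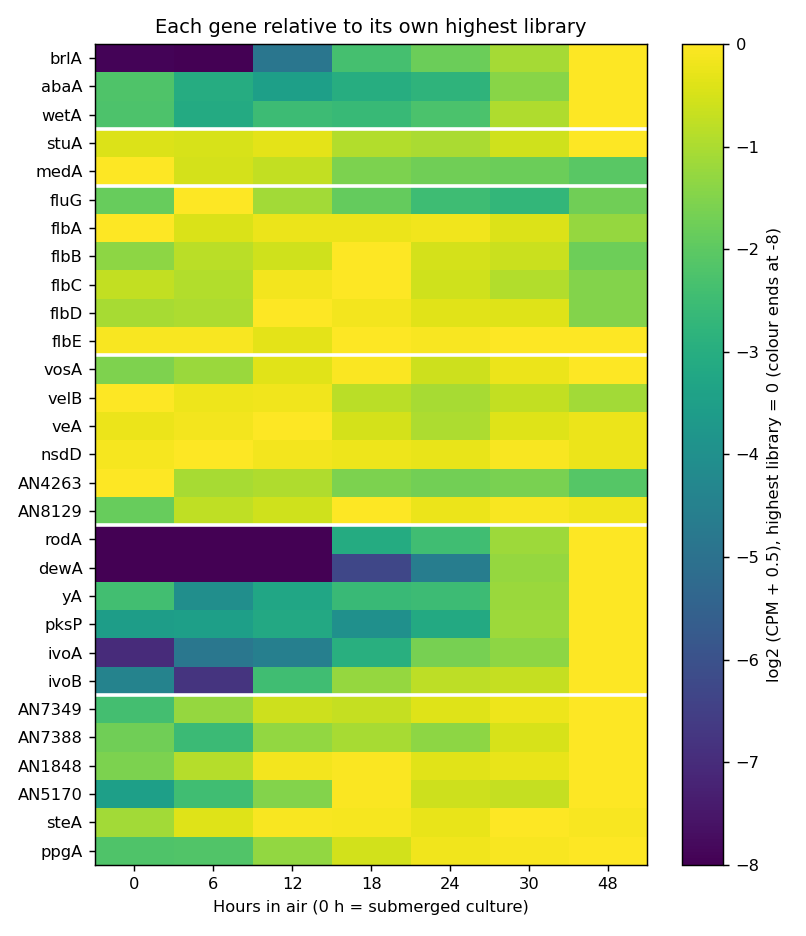
log2(CPM + 0.5) of the 5 regulators and 24 other listed genes relative to each gene's own highest library, by hours in air, 1 library per time; genes without a reference symbol are shown by identifier. White lines part, from the top, brlA with abaA and wetA, the modifiers, the upstream activators, the repressors and velvet regulators, the spore and conidiophore products, and the sexual development markers. The 6 products and the 3 core regulators are all brightest at 48 h. The activators fluG, flbB, flbC and flbD are brightest at 6 to 18 h. With the TMM scaling drawn here flbA is brightest at 0 h, and flbE differs little between libraries.

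Upstream of brlA, none of the 6 activator genes fluG, flbA, flbB, flbC, flbD and flbE was called by edgeR over 0 to 48 h, with 1 at an unadjusted p under 0.05, 1 called lower by DESeq2 and 0 by limma-voom. Over 6 to 48 h edgeR, DESeq2 and limma-voom also called 0 of the 6. There 0 had an unadjusted p under 0.05 by edgeR or limma-voom, and 4 by DESeq2. The share of all genes under that unadjusted mark was not counted in either span, so these counts have no background. Without the 6 h library edgeR called 3 of the 6 activators lower over 6 to 48 h, as were 973 of 9689 genes tested. Of all genes tested, edgeR called 10.6% higher and 12.4% lower over 0 to 48 h, and 10.1% and 8.68% over 6 to 48 h. Over 0 to 48 h DESeq2 called 1329 of 9703 genes higher and 1576 lower, and limma-voom 1085 and 1128. Over 6 to 48 h DESeq2 called 1074 of 9691 genes higher and 1285 lower, and limma-voom 1050 and 944. The median change of the 6 activators over 0 to 48 h was -0.67, beside 0.11 for all genes tested. fluG, needed for the signal that starts conidiation, was highest at 6 h, with 141, 511, 239, 138, 91.7, 78.8 and 154 CPM from 0 to 48 h. flbB, a bZIP transcription factor gene, stood at 63.3, 90.7, 109, 162, 113, 104 and 46.99 CPM, and its fitted curve stood above its line (edgeR adjusted p = 0.048). flbD, a Myb-type factor gene, stood at 60.5, 63.2, 125, 115, 97.5, 94.5 and 44.7 CPM and was short of that threshold (adjusted p = 0.0716, edgeR). The highest libraries of fluG, flbB and flbD thus lay at 6, 18 and 12 h, when brlA was at 0.184% to 19.4% of its 48 h level. flbC was also highest at 18 h (209 CPM). With TMM flbA was highest at 0 h (179 CPM), which depends on the scaling. Its 24 h level was 0.886-fold its 0 h level with TMM and 2.35-fold by totals. At 48 h these were 0.415-fold and 1.26-fold. flbE lay between 21.5 and 26.9 CPM in every library with TMM, so on that scale an early peak was not shared by all 6.

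Among the 6 repressors and velvet regulators 0 rose and 2 fell over 0 to 48 h, and 0 were called by edgeR over 6 to 48 h. Of all genes tested, 10.6% rose and 12.4% fell over 0 to 48 h, and 10.1% and 8.68% over 6 to 48 h. In the latter span 1 of the 6 was called lower by DESeq2 and 1 by limma-voom, and edgeR's unadjusted p lay under 0.05 for 2. DESeq2 called 1285 and limma-voom 944 of 9691 genes lower there. The share of all genes at an unadjusted p under 0.05 was not counted. The median change of the 6 over 0 to 48 h was -0.19, beside 0.11 for all genes tested. The genes that fell were velB, a velvet-domain regulator gene (-1.16 ± 0.36), and AN4263, which has no symbol in the reference table (-1.87 ± 0.44). Scaled by totals 1 of the 6 rose and 0 fell, beside 2053 and 311 of 9703 genes. On log2(hours + 6) 2 rose and 2 fell, beside 1455 and 1547 genes. Without any 1 library 0 or 1 fell, beside 691 to 1205 genes. vosA, another velvet-domain gene known to act back on brlA in spores, stood at 18.5, 23.4, 42.4, 52.6, 35.4, 46.6 and 54.8 CPM, with a fitted change of 1.32 that was short of the threshold (adjusted p = 0.0881, edgeR).

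All 6 genes for spore and conidiophore products rose over 0 to 48 h, and 4 of 6 over 6 to 48 h. Of all genes tested, 10.6% and 10.1% rose in these fits. The median changes of the 6 were 6.04 and 4.66, beside 0.11 and 0.065 for all genes tested. rodA and dewA, the genes with 0 counts at 0 h, both lay above the first of these medians. Over 6 to 48 h rodA and ivoB were short of the threshold (edgeR, adjusted p = 0.0803 and 0.107). Leaving out 1 library gave 4 to 6 and 3 to 5 such calls, beside 639 to 1112 and 408 to 1022 over all genes. By the 4-fold rule, ivoA, which acts in conidiophore pigmentation, first passed at 6 h. rodA and the phenol oxidase gene ivoB passed at 12 h with brlA, and the hydrophobin gene dewA at 18 h. yA and the pigment polyketide synthase gene pksP (AN8209) passed at 30 h with abaA and wetA. yA stood at 54.5, 17.2, 30.02, 48.6, 50.7, 126 and 292 CPM. pksP stood at 15.7, 16.6, 20.6, 11.5, 21.2, 84.7 and 190 CPM.

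The 6 listed markers of sexual development were measured because the same mycelium can form fruiting bodies. Over 0 to 48 h 2 of 6 rose, the pheromone precursor gene ppgA and AN7388, and over 6 to 48 h AN7388 alone rose. Of all genes tested, 10.6% and 10.1% rose in these fits. On log2(hours + 6) 5 of 6 were called higher over 0 to 48 h and 2 of 6 over 6 to 48 h. On that time scale 1455 of 9703 and 913 of 9691 genes were called higher. The median change of the 6 markers over 0 to 48 h was 2.13, beside 0.11 for all genes tested. The summed level of the 6 was 415 CPM at 0 h, 642 at 6 h and between 896 and 1164 from 12 h on, and none of them was at 0 in any library. Most of the sum came from AN1848 (247 to 739 CPM) and steA (133 to 288 CPM), neither called in the main fits. AN7349 had 1 count at 0 h and reached 3.74 CPM, and ppgA had 4 counts at 0 h and reached 7.55 CPM. AN7388 reached 101 CPM and AN5170 39.9 CPM. Without 1 library 1 to 3 of the 6 markers were called higher over 0 to 48 h and 0 to 2 over 6 to 48 h. Over all genes these calls were 639 to 1112 and 408 to 1022. The part of the 6 markers in the courses of the 5 regulators was not tested.

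On the contigs no other gene of the table overlapped any of the 5 regulators. The nearest neighbour of each lay 1013 bases from brlA, 644 from abaA, 612 from wetA, 839 from stuA and 1032 from medA. AN0974, the gene next to brlA, had 22 counts at 48 h and 0 counts at 0 h, against 4366 and 3 for brlA. The sources used here do not give the counting rule or strand, so reads shared with a neighbour cannot be told apart.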

How the data were processed

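Whole-number counts per gene, a signal in reads per nucleotide and RPKM values were deposited by the authors in 1 table with 21 columns, 3 for each of 7 libraries, per the file headers. Each column was placed by its time label. The deposited counts were tested. The deposited signal gave each gene's counted length (count divided by reads per nucleotide), a multiple of 3 for 98.7% of genes with at least 100 counts in a library, so a coding length. The deposited RPKM values equal that signal scaled by the column's count total and were not tested. Per the submitters' processing notes CASAVA was used, with no role stated. The aligner, build, annotation and strand setting: not given in the sources used here. Symbols came from the ASM1142v1 reference table, used for names only (10455 of 10639 identifiers matched).

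The members and lists were chosen with earlier results of these data known. Slopes and curves were fitted with edgeR 4.0.16 (quasi-likelihood, robust, TMM) in R 4.3.3, for genes with at least 1 CPM in 1 library and 15 counts in all, with Benjamini-Hochberg adjustment over all genes and a threshold of 0.05. With 1 library per time, departures from the fitted line count as error, and the p-values measure only that spread. DESeq2 1.42.0 and limma-voom (limma 3.58.1), other scalings, no filter, log2(hours + 6) and leaving out each library were alternatives. Fold and ratio intervals are exact 95% limits for counting error. Genes named are the 5 members, the listed genes, the 5 most alike genes and the 3 most alike with a symbol, and neighbours on the contig. Fits were also run on simulated counts, with the same spread setting for every gene and flat, straight or parabolic courses. Courses with a step were not simulated, so that check does not cover them. Tables were made in Python 3.11.15 with SciPy 1.17.1 and pandas 2.3.3, and plots with matplotlib 3.10.9.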

Additional observations from a re-analysis of the deposited data

How the results depend on the processing

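Of 303 alternative values, 246 were classed as unchanged from the main result. For slopes, curves and ratios this means the same direction and side of the threshold, by unadjusted exact p for ratios. Results that missed the threshold in both settings are included. Counts of genes were classed by closeness to the main count, and first rises by an identical time. Times at a set share of the highest level were classed by lying inside the main counting interval. Scaled by totals alone, 2053 genes rose and 311 fell over 0 to 48 h and 2157 and 379 over 6 to 48 h; stuA then rose over 0 to 48 h (1.53, edgeR adjusted p = 0.0404) and medA was not past the test in either fit (-0.81 and -0.91). DESeq2 called 1285 genes lower over 6 to 48 h. On log2(hours + 6) the value of abaA was 2.24 over 0 to 48 h, short of the threshold (edgeR adjusted p = 0.0958), and the slopes of abaA to brlA and wetA to brlA were -7.96 and -7.66 (exact p = 0.0103 and 0.00575). RLE factors gave 3.24 for the curve of brlA (edgeR adjusted p = 0.0504). The 12 to 48 h libraries alone gave -0.57 for abaA to brlA (exact p = 0.675), -1.39 for wetA to brlA (exact p = 0.408) and -0.82 for wetA to abaA (exact p = 0.0917), and a pseudocount of 2 gave -0.00043 for wetA to abaA. The cause was not tested.

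Leaving out 1 library gave 639 to 1112 genes higher and 691 to 1205 lower over 0 to 48 h, with the lowest counts without the 30 h library (642 and 768 without the 48 h library), and 408 to 1022 and 284 to 973 over 6 to 48 h, lowest without the 48 h library; without the 12 h library these were 628 and 532. Over 0 to 48 h the fitted changes were 6.42 to 9.45 for brlA, 0.86 to 3.65 for abaA, 1.42 to 3.40 for wetA, -0.40 to 0.47 for stuA and -2.04 to -1.5004 for medA. The calls of abaA and wetA were lost without the 48 h library, where stuA turned negative. Over 6 to 48 h they were 3.98 to 7.27 for brlA (lost without the 12 or 30 h library), 1.81 to 3.81 for abaA (lost without 48 h), 2.10 to 3.53 for wetA, -0.29 to 0.63 for stuA and -1.57 to -1.04 for medA. The curve of brlA ranged from 2.09 to 3.62, the ratio changes from -7.80 to -4.26 for abaA to brlA (exact p = 0.0222 without the 48 h library), -7.26 to -4.54 for wetA to brlA (exact p up to 0.147) and -0.28 to 0.54 for wetA to abaA (-0.28, -0.21, -0.00044 and -0.027 without the 0, 6, 24 and 30 h library).

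The first rise of abaA was at 48 h from a 6 h base, and the 4-fold marks interpolated to 8.88, 29.3 and 28.8 h for brlA, abaA and wetA. The time at 50% of the highest level was 31.9 h by totals and 31.5 h by log interpolation for brlA. For abaA it was 35.5 h by log interpolation. A mark at 10% gave 14.5 h for brlA and 15.001 h for abaA, and none for wetA, whose level never lay below it. The time of abaA is a return above the mark: abaA stood at 21.3% at 0 h, 11.5% at 6 h and 8.27% at 12 h. No paired analysis was possible because each time has 1 library. The low counts of brlA at 0 and 6 h, 3 each, limit every ratio and fold set against those times.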

Other observations

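AN6232, which lies 3740 bases from medA with trpB between them, had 238 CPM at 48 h, against 582 CPM at 0 h, and its r with medA over the 7 libraries was 0.982, a value noticed among the neighbours after they were computed. The other neighbours of medA had r of 0.054 to 0.675.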
